A study of Rattus norvegicus with 30 samples.

Results

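The comparison described here sets rat hippocampus taken 240 h after kainate against rat hippocampus taken 240 h after PBS (phosphate-buffered saline, the vehicle). RNA was measured on Affymetrix arrays, which report 1 signal per probe set, a group of short probes for a transcript. There were 3 kainate arrays and 3 PBS arrays at 240 h, out of 30 arrays in 10 groups (kainate or PBS at 1, 6, 24, 72 and 240 h). The members were the probe sets, array controls left out, that lay above a signal of 35 on at least 3 of the 6 arrays of 240 h, which kept 5400 of 8740. Of these, 4488 carried 1 gene name and stood for 3254 genes, and 912 carried none or several. The labels give the treatment and the time of death, and the sources used here give no strain, sex, age, dose or seizure score. They number the arrays of a group without saying whether each came from a separate rat, and the p-values therefore cover array-to-array spread, part or all of which may be technical.

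Kainate is an agonist of a class of ionotropic glutamate receptors and is used in rats to bring on prolonged limbic seizures. In the hippocampus such seizures are known for an early wave of activity-driven transcription, followed by a reaction of astrocytes and microglia, loss of vulnerable neurons, and later sprouting of mossy fibres, the axons of dentate granule cells. In whole tissue, a lower signal can come from fewer cells of a type or from less RNA per cell, and these cannot be told apart.

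The arrays of 240 h carried transcripts of neurons and oligodendrocytes, with signals of 1641 to 2068 for the synaptic protein gene Snap25, 1967 to 2741 for the postsynaptic gene Nrgn and 4267 to 6924 for the myelin gene Mbp. The astrocyte gene Gfap and the granule cell gene Prox1 had no probe set under their names. Ttr, the transthyretin of the choroid plexus, ranged from 145 to 2826 on kainate arrays and from 330 to 2746 on PBS arrays. The summed signal of 14 choroid plexus, meninges and neighbouring region markers was 5343 on kainate array 2 and 5150 on PBS array 1, against 2417 to 2793 on the other 4. That choroid plexus signal was therefore high on 1 array of each group. Gapdh probes at the 3 prime end over those at the 5 prime end, a ratio that reflects RNA quality, differed on the log2 scale by 0.00 between kainate and PBS arrays (2-sided exact permutation test, p = 1.0), the ratio of beta-actin by −0.04 (p = 0.7) and that of hexokinase by 0.14 (p = 0.4), where 3 arrays against 3 cannot give a p below 0.1. Pairs of kainate arrays correlated at 0.925 to 0.935 over the members, pairs of PBS arrays at 0.945 to 0.962, and pairs across the groups at 0.924 to 0.952. Kainate arrays of 240 h thus resembled each other no more closely than they resembled PBS arrays.

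Hardly any gene passed the test at 240 h. In limma's model over all 30 arrays, with 1 precision weight per group, 1 of 5400 probe sets had a Benjamini-Hochberg adjusted p under 0.05 (0.0185%), and it was higher after kainate. Over genes, each standing by its brightest probe set, this was 1 of 3254 (0.0307%). At an unadjusted p under 0.05 there were 300 probe sets higher (5.56%) and 220 lower (4.07%) after kainate. Together these were 520 (9.63%), more than the share of 0.05 expected on average if no probe set differed. Probe sets share the same arrays, and this excess was not tested. The 3 kainate signals lay wholly above the 3 PBS signals for 517 probe sets (9.57%) and wholly below them for 280 (5.19%), 14.8% in all. On the same 5400 probe sets, groups failed to overlap for 30.1% at 24 h and 23.3% at 72 h.

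At 1 h the same fit made 34 calls (0.63%), and at 6 h it made 355 (6.57%). At 24 h there were 500 calls (9.26%), with 210 probe sets higher (3.89%) and 290 lower (5.37%) after kainate, and at 72 h 123 calls (2.28%), with 90 higher (1.67%) and 33 lower (0.611%). The number of calls was therefore highest at 24 h and lowest at 240 h among the 5 times, although the members were chosen for their signal on the 240 h arrays. Precision at 240 h was close to that at 24 h, with a median standard error of the log2 difference of 0.25 at both times. The median standard error was 0.17 at 72 h. The effects themselves had a standard deviation of 0.37 over probe sets at 240 h, against 0.51 at 24 h and 0.28 at 72 h.

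**Figure D1:**
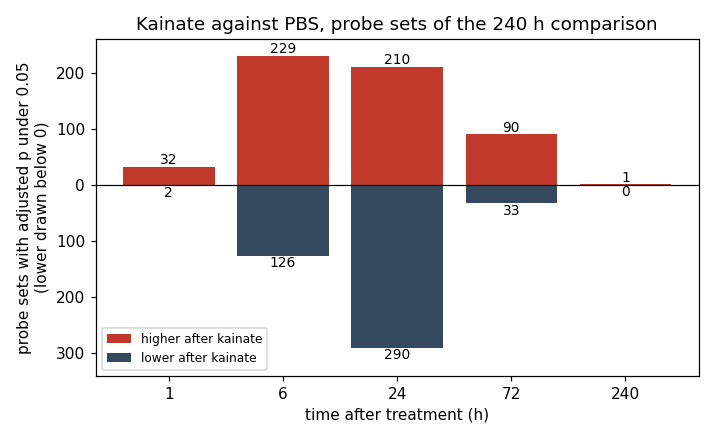
Number of the 5400 probe sets with limma adjusted p under 0.05 at each time after treatment (h), with those higher after kainate drawn up from 0 and those lower drawn down. The bar of 240 h holds 1 probe set, against 500 at 24 h and 123 at 72 h.

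The absence of a call does not show that a gene was unchanged, and the width of the limits says how much could have been missed. The 95% limits of a log2 difference at 240 h reached a median of 0.52 to either side. For 2409 of 3254 genes (74.0%) the 95% limits lay within −1 and 1, which leaves out a difference as large as 2-fold. The median log2 difference over all members was 0.02.

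The probe set that passed belongs to Pola2, the accessory subunit of the DNA polymerase alpha-primase complex, which starts new DNA strands. Its signal was 51.9, 51.5 and 41.6 on kainate arrays, against 10.4, 14.9 and 9.63 on PBS arrays, and 2 of the 3 PBS signals were below the floor of 10.9 applied before taking log2. The groups did not overlap, and the log2 difference was 1.99 (95% limits 1.25 to 2.74, limma adjusted p = 0.0392). Pola2 was among 36 probe sets that entered the comparison through the kainate arrays alone, all 3 above 35 with no PBS array above it. Such entry fixes a higher kainate group without overlap, so direction and lack of overlap are no separate support. Of the 36, 16 had an unadjusted p under 0.05 in limma. Its kainate mean at 240 h, 48.4 ± 5.84, was similar to the kainate mean at 72 h, 49.1 ± 10.1, and to the PBS mean at 72 h, 53.7 ± 14.4 (SD, n = 3 each). The PBS mean at 240 h, 11.6 ± 2.87 (SD, n = 3), was the lowest of the 10 groups.

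The call on Pola2 was lost in a fit of the 6 arrays of 240 h alone (limma adjusted p = 0.561, unadjusted p = 0.00421) and in 5 of the 6 fits that left out 1 array of 240 h, whose adjusted p ran from 0.0382 to 0.265. With signals floored at 35, the signal of the member rule, the log2 difference of Pola2 was 0.46 and it did not pass (limma adjusted p = 0.538). The 6-array fit called no probe set, with 435 at an unadjusted p under 0.05 (8.06%).

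The genes that followed Pola2 on the higher side did not pass. Hbegf, a ligand of the epidermal growth factor receptor, had signals of 59.7, 56.8 and 46.0 on kainate arrays, against 11.7, 22.5 and 12.8 on PBS arrays (log2 difference 1.84, 95% limits 1.10 to 2.59, limma adjusted p = 0.0602). It too entered through the kainate arrays alone, its 2 groups did not overlap, and with the floor at 35 its log2 difference was 0.62. Its mean at 240 h, 54.2 ± 7.27 after kainate and 15.7 ± 5.91 after PBS, compares with 39.4 ± 2.09 and 47.2 ± 6.32 at 72 h (SD, n = 3 each). As with Pola2, the PBS mean of 240 h was the lowest of the 5 PBS groups. Gpr15lg, which in humans and mice encodes a secreted ligand of the receptor Gpr15, had 126, 124 and 110 on kainate arrays, against 31.4, 69.1 and 33.3 on PBS arrays (1.52, limits 0.81 to 2.23, limma adjusted p = 0.125). Psma7, a subunit of the proteasome core, had 784, 692 and 666 on kainate arrays, against 474, 489 and 530 on PBS arrays (0.52, limits 0.28 to 0.76, limma adjusted p = 0.125). A second Psma7 probe set gave a log2 difference of −0.20. Those 2 probe sets of Psma7 thus differed in direction.

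On the lower side 0 genes passed in limma, with 129 at an unadjusted p under 0.05 (3.96%). Kctd20 had the smallest p there, with 171, 47.7 and 81.9 on kainate arrays, against 205, 174 and 196 on PBS arrays (log2 difference −1.13, limits −1.65 to −0.61, limma adjusted p = 0.125). Pde4d, a phosphodiesterase that breaks down cAMP, had 26.3, 11.9 and 5.65 on kainate arrays, against 46.4, 53.2 and 38.7 on PBS arrays (−1.60, limits −2.37 to −0.84, limma adjusted p = 0.125), and was among 8 probe sets that entered through the PBS arrays alone. Lbh had 122, 32.9 and 65.7 on kainate arrays, against 167, 160 and 119 on PBS arrays (−1.20, limma adjusted p = 0.162), and its groups overlapped. In Kctd20, Pde4d and Lbh alike, kainate array 1 stood nearest to the PBS arrays. Without that array the 3 genes had log2 differences of −1.61, −2.01 and −1.66, and all 3 passed (limma adjusted p = 0.000438, 0.0455 and 0.0177). Without kainate array 2, in contrast, Kctd20 had −0.69 and Lbh −0.72, and neither passed (limma adjusted p = 0.428 and 0.546). The values of Kctd20 and Lbh thus depended on which kainate array was left out. With the floor at 35, Pde4d had a log2 difference of −0.39. Syt4, a synaptotagmin of neuronal vesicles, was more even, with 320, 311 and 353 on kainate arrays, against 506, 531 and 435 on PBS arrays (−0.58, limits −0.88 to −0.28, limma adjusted p = 0.162). Another Syt4 probe set had overlapping groups and a log2 difference of −0.31.

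**Figure D2:**
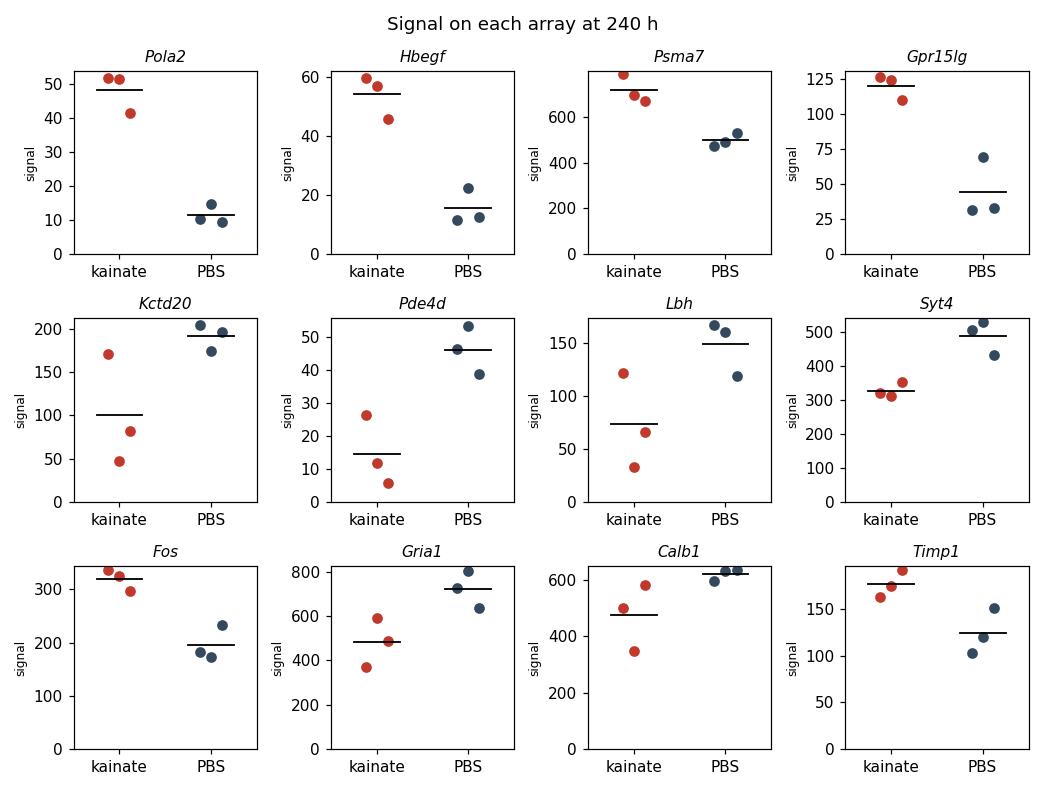
Signal (linear scale from 0) of 12 genes on each of the 3 kainate arrays (left) and 3 PBS arrays (right) of 240 h, with a line at each group's mean. Fos, Gria1, Calb1 and Timp1 were picked after their values were seen, and the groups of Pola2, the gene that passed, are far apart at low signals, whereas Kctd20 and Lbh have 1 kainate array near the PBS arrays.

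The measured panel genes of the glial reaction had log2 differences of −0.30 to 0.51 at 240 h, and none passed. Vim, an intermediate filament protein of reactive astrocytes, had 119, 130 and 115 on kainate arrays, against 152, 81.8 and 77.9 on PBS arrays (log2 difference 0.29, limits −0.19 to 0.78). The microglial gene Aif1 had 36.2, 76.8 and 23.7 on kainate arrays, against 47.7, 48.2 and 49.8 on PBS arrays (−0.27, limits −1.03 to 0.49). The complement gene C1qb had 118, 116 and 199 on kainate arrays, against 163, 165 and 188 on PBS arrays (−0.30, limits −0.88 to 0.28), while a second C1qb probe set had a log2 difference of 0.15. In Vim, Aif1 and C1qb the groups overlapped. Timp1, an inhibitor of matrix metalloproteinases, had 162, 174 and 191 on kainate arrays, against 103, 120 and 150 on PBS arrays. Its groups did not overlap, and its log2 difference of 0.51 (limits 0.07 to 0.96) had a limma adjusted p of 0.483 (unadjusted p = 0.0243).

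The marker genes Spp1, Lgals3 and Cd74 did not reach the signal of 35 on 3 arrays and were outside the comparison. Spp1, osteopontin, had 31.2, 25.2 and 17.1 on kainate arrays, against 16.1, 13.4 and 11.03 on PBS arrays, where at 24 h it had 123, 181 and 99.1 after kainate, against 5.88, 21.8 and 15.8 after PBS. Lgals3, galectin-3 of activated phagocytes, had 25.3, 26.2 and 39.2 on kainate arrays, against 4.45, 29.2 and 7.83 on PBS arrays. In a fit of all 8740 probe sets the kainate effect at 240 h was lower than that at 24 h for Spp1, by a log2 difference of −2.23 (limma adjusted p = 0.0419), and for Lgals3, by −3.43 (limma adjusted p = 0.000738), with 2 of 3 PBS signals of Lgals3 below the floor at both times. For Cd74 the difference, −1.26, did not pass (limma adjusted p = 0.476). Cd74, the invariant chain of class II antigen presentation, had 20.8, 2.21 and 4.39 on kainate arrays, against 2.90, 2.55 and 2.47 on PBS arrays, so that 1 kainate array stood apart at a low level.

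Neuropeptide and activity-regulated genes, the classic readouts of the seizure response, did not pass at 240 h either. Fos, an immediate early transcription factor gene, had the smallest p among 24 such genes, with 336, 325 and 296 on kainate arrays, against 183, 173 and 233 on PBS arrays (log2 difference 0.71, limits 0.31 to 1.11, unadjusted p = 0.00112, limma adjusted p = 0.224). All 3 kainate signals of Fos lay above the PBS signals, while a second Fos probe set had overlapping groups and a log2 difference of 0.48. Arc, whose product acts at synapses after activity, had 472, 563 and 476 on kainate arrays, against 485, 491 and 533 on PBS arrays (0.00, limits −0.37 to 0.36). The neurotrophin gene Bdnf had 84.0, 119 and 104 on kainate arrays, against 78.8, 91.5 and 95.9 on PBS arrays (0.20, limits −0.19 to 0.59). Arc and Bdnf overlapped between the groups at these probe sets. Other Bdnf probe sets had log2 differences of −0.36, 0.43 and 0.22, and none passed.

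Npy, neuropeptide Y, had 271, 240 and 261 on kainate arrays, against 226, 260 and 327 on PBS arrays (log2 difference −0.06, limits −0.37 to 0.25). The log2 differences of Sst (somatostatin), Penk (proenkephalin) and Pdyn (prodynorphin) were −0.17, 0.22 and 0.27, and the groups of all 3 overlapped. Trh, thyrotropin-releasing hormone, had the smallest p among 23 neuropeptide and growth factor genes, with 116, 57.1 and 85.7 on kainate arrays, against 30.4, 61.9 and 50.8 on PBS arrays (0.86, limits 0.29 to 1.42, limma adjusted p = 0.337). Its groups overlapped. Gap43, a growth-cone protein followed in axon sprouting, had 970, 959 and 987 on kainate arrays, against 696, 875 and 838 on PBS arrays. Its groups did not overlap, and its log2 difference was 0.28 (limits −0.09 to 0.65, limma adjusted p = 0.644).

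Among glutamate receptor genes directions were mixed. Of 12 AMPA, kainate and NMDA receptor subunits, 6 had a log2 difference above 0 and 6 below (median −0.03, 1 higher and 2 lower at an unadjusted p under 0.05), and of 5 metabotropic receptors 4 were above 0. The panel's AMPA receptor subunits and some neuronal genes had lower means after kainate, without passing. Gria1, an AMPA receptor subunit, had 370, 590 and 487 on kainate arrays, against 728, 804 and 635 on PBS arrays (log2 difference −0.60, limits −1.04 to −0.17, unadjusted p = 0.00832, limma adjusted p = 0.401). Its groups did not overlap, and 2 further Gria1 probe sets had log2 differences of −0.31 and −0.64. Gria2, the subunit that limits calcium entry through AMPA receptors, had 349, 483 and 404 on kainate arrays, against 661, 575 and 411 on PBS arrays (−0.40, limits −0.80 to 0.00), and its groups overlapped. Calb1, a calcium-binding protein of granule and CA1 pyramidal cells, had 499, 348 and 581 on kainate arrays, against 596, 631 and 635 on PBS arrays (−0.42, limits −0.83 to 0.00, limma adjusted p = 0.518). The groups were apart for Calb1, and the highest kainate signal lay close to the lowest PBS signal. Camk2a, a kinase subunit of excitatory synapses, had signals of 26.1 to 59.3 on kainate arrays, against 50.8 to 66.1 on PBS arrays (−0.75, limits −1.49 to −0.01), which overlap. The GABA receptor subunit Gabra5 (−0.27) and Mbp (−0.12) had overlapping groups. Dcx, a gene of immature neurons, had no probe set under its name.

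Across 33 gene lists drawn up for this tissue and treatment, with 5 to 34 genes measured in each, 0 members passed at 240 h in limma, against 1 of all 3254 genes (0.0307%). At 24 h, 29 of the lists held at least 1 member that passed, and at 72 h 14 of the lists did. Of all single genes, 324 passed at 24 h (9.96%) and 73 at 72 h (2.24%). A list of several genes holds a passing member more readily than a single gene passes. These counts of lists therefore do not show that the lists were richer in calls than all genes. Median log2 differences of the lists at 240 h ran from −0.19 to 0.29, 16 of them above 0 and 17 below, beside 0.02 for all genes. At 24 h the medians of the same lists ran from −0.41 to 0.74.

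The list with the highest median at 240 h was the reactive astrocyte genes (0.29 over 11 genes, 9 of them above 0, 3 higher at an unadjusted p under 0.05), where all genes had 194 higher (5.96%) and 129 lower (3.96%) at that level. Cp, the copper-carrying ferroxidase ceruloplasmin, had the smallest p of that list, with 71.3, 36.7 and 46.8 on kainate arrays, against 18.9, 34.0 and 20.7 on PBS arrays (log2 difference 1.07, limma adjusted p = 0.455). Cp entered through the kainate arrays alone. Blood and endothelial markers had a median of 0.27 over 12 genes. Their summed signal was 5198 to 5798 on kainate arrays and 5404 to 6416 on PBS arrays, which overlap. Among them Selp, the adhesion molecule P-selectin, had 70.8, 44.7 and 41.9 on kainate arrays, against 39.2, 40.0 and 10.4 on PBS arrays (0.99, limma adjusted p = 0.452). The PBS signal of 10.4 lay below the floor, and the log2 difference of Selp ran from 0.36 to 1.31 under the alternatives. Cell cycle and p53 targets had a median of 0.21 over 15 genes, and cell death regulators of 0.16 over 12. No median was tested, and a list's median is given as a description of these arrays.

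Lower medians were found for axon growth, cytoskeleton and sprouting genes (−0.19, 17 of 21 below 0), glucocorticoid-responsive genes (−0.17, 6 of 9 below 0), cytosolic ribosomal proteins (−0.16, 26 of 34 below 0) and neuron markers (−0.15, 15 of 20 below 0). Ribosomal protein genes had a median of 0.24 at 24 h, with 9 of 34 higher and none lower by the adjusted test, where 3.78% of all genes were higher and 6.18% lower. At 240 h the one with the smallest p was Rps29, with 2913, 3317 and 4475 on kainate arrays, against 4469, 4027 and 4528 on PBS arrays (log2 difference −0.30, limits −0.58 to −0.03, limma adjusted p = 0.495). Its groups overlapped. Of the neuron markers, Ppp3cb, a catalytic subunit of calcineurin, had 170, 142 and 214 on kainate arrays, against 280, 318 and 222 on PBS arrays (−0.65, limits −1.11 to −0.18, limma adjusted p = 0.398). Summed signals of the neuron markers were 22603 to 24226 on kainate arrays, against 23692 to 25377 on PBS arrays, and those of the microglia and macrophage markers 2333 to 2581, against 2065 to 2505. Both sums overlapped. The summed signal of the 11 reactive astrocyte genes was 1949 to 2103 on kainate arrays and 1747 to 1844 on PBS arrays, the only one of 9 marker sums without overlap. Among all 5400 single probe sets the groups did not overlap for 14.8%, and the sums were not tested. The sum of the 9 general astrocyte markers was 11461 to 12426 on kainate arrays and 10890 to 12503 on PBS arrays, with a median log2 difference of −0.05. The part of changed cell numbers in these values was not tested.

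**Figure D3:**
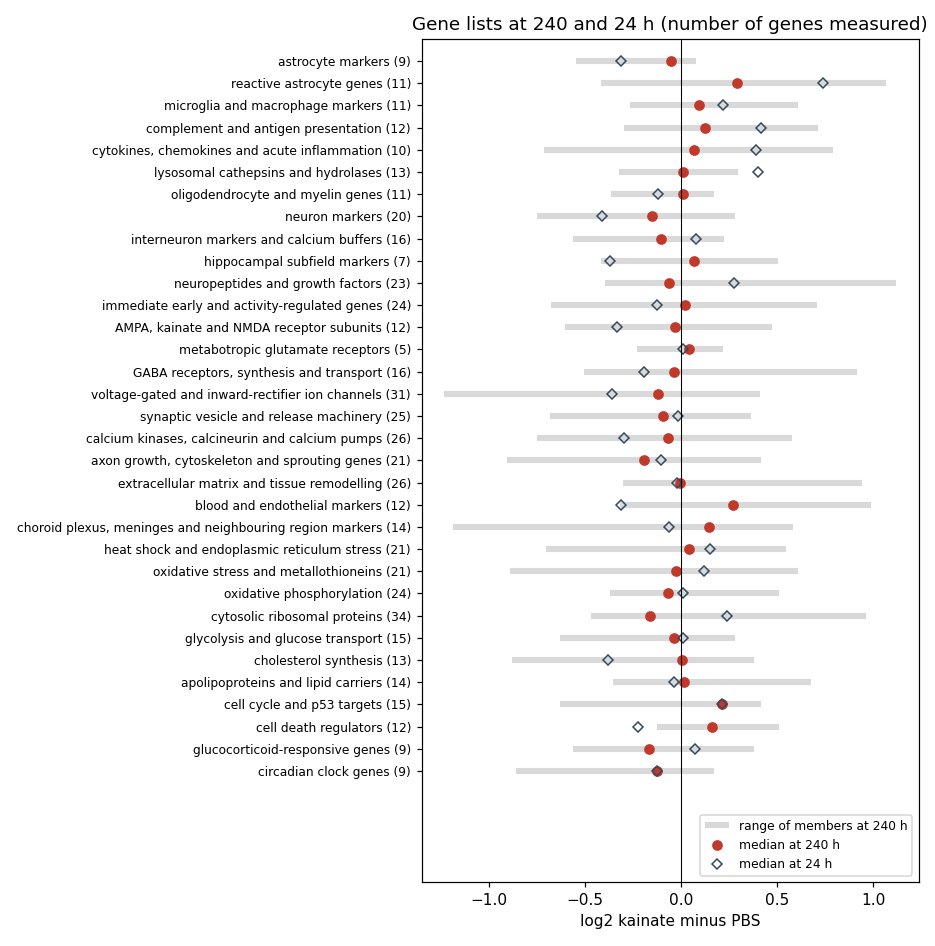
Median log2 difference (kainate minus PBS) of each of 33 gene lists at 240 h (filled circles) and at 24 h (open diamonds), with grey bars for the range of the members at 240 h and the number of genes measured in parentheses. Medians at 240 h lie between −0.19 and 0.29, and those at 24 h between −0.41 and 0.74.

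The probe sets called at 24 h were next read at 240 h, in arrays other than those the call compared. Of 210 probe sets higher at 24 h, the median log2 difference was −0.04 at 240 h, against 0.85 at 24 h, with quartiles of −0.20 and 0.17 at 240 h. Of 290 lower at 24 h, it was 0.01 at 240 h, against −0.76 at 24 h, with quartiles of −0.12 and 0.22. In direction, 93 of the 210 (44.3%) and 139 of the 290 (47.9%) were on the same side at 240 h as at 24 h, where 52.2% of all probe sets were above 0 and 47.8% below. An effect under 50% of that at 24 h was seen in 205 of the 210 and 274 of the 290. The sets were chosen for their effect at 24 h, which tends to overstate it. Part of the fall in other arrays was therefore built into the choice, and the size of that part was not tested. At an unadjusted p under 0.05, 8 of the 210 were higher at 240 h and 7 lower, and 22 of the 290 were higher and 14 lower, where 5.56% of all probe sets were higher and 4.07% lower. Over all 5400 probe sets the effects of 240 h correlated with those of 24 h at a Pearson r of −0.02, of 72 h at 0.05, of 6 h at −0.18 and of 1 h at −0.06. Probe sets are not independent replicates, and each time has its own kainate and PBS arrays.

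**Figure D4:**
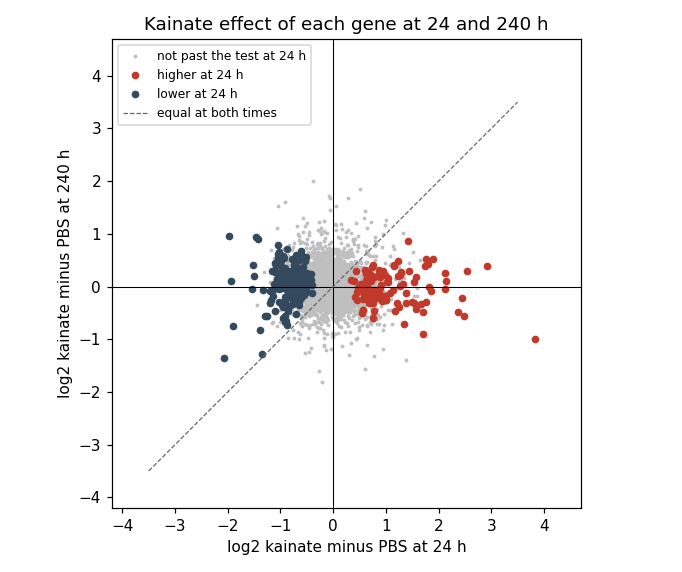
Log2 difference (kainate minus PBS) of each of 3254 genes at 24 h (x axis) and 240 h (y axis), with genes that passed at 24 h in red (higher) and blue (lower) and a dashed line where both times would be equal. Both coloured sets lie around 0 on the 240 h axis, with medians of −0.03 for the 123 higher genes (3.78%) and 0.06 for the 201 lower genes (6.18%).

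The difference between the effects of 240 h and 24 h was tested directly. It passed for 198 of 5400 probe sets (3.67%), 108 with a higher effect at 240 h (2.0%) and 90 with a lower one (1.67%), and for 132 genes (4.06%), 81 higher (2.49%) and 51 lower (1.57%). Without PBS array 1 the count was 93, with 40 higher and 53 lower, and in a fit of the 12 arrays of 24 and 240 h it was 97, with 37 higher and 60 lower. It was 117 and 121 without kainate array 1 and 2, again with more lower than higher, so neither the size nor the balance of the count was firm. In 86 of the 108 and 80 of the 90, the probe set had itself passed at 24 h, where 500 of all 5400 did (9.26%). The tested difference contains the effect at 24 h, so such an excess is built in and is no separate support.

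The 6 genes with the smallest p for this difference all had a lower effect at 240 h, and each had passed as higher after kainate at 24 h. Fabp7, the brain fatty acid binding protein of radial glia and astrocytes, averaged 185 ± 16.0 after kainate and 198 ± 38.1 after PBS at 240 h, where at 24 h it averaged 994 ± 70.3 after kainate and 276 ± 33.0 after PBS (SD, n = 3 each). The effect at 240 h minus that at 24 h was −1.94 on the log2 scale (95% limits −2.43 to −1.45, limma adjusted p = 1.10e-05). Fabp7 signals on single arrays of 240 h were 169, 183 and 201 after kainate, against 154, 219 and 221 after PBS, and overlapped.

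Vim gave the same kind of difference (−2.26, limma adjusted p = 0.000158), averaging 1158 ± 133 after kainate and 197 ± 10.3 after PBS at 24 h (SD, n = 3 each). S100a10, the annexin A2 partner also called p11, had 42.0, 87.7 and 112 on kainate arrays of 240 h, against 108, 80.8 and 74.2 on PBS arrays. At 24 h it averaged 747 ± 93.3 after kainate and 138 ± 8.56 after PBS (SD, n = 3 each), and the difference of the effects was −2.65 (limma adjusted p = 0.000186). Cnn3, an actin-binding calponin, had 176, 250 and 274 on kainate arrays of 240 h, against 309, 268 and 280 on PBS arrays (difference of the effects −1.70, limma adjusted p = 0.000186). In S100a10 and Cnn3 the groups of 240 h overlapped.

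Cd63, a tetraspanin of late endosomes and lysosomes, had 282, 336 and 391 on kainate arrays of 240 h, against 373, 386 and 503 on PBS arrays. At 24 h it averaged 1009 ± 96.9 after kainate and 320 ± 39.6 after PBS (SD, n = 3 each), and the difference of the effects was −1.98 (limma adjusted p = 1.11e-05). Vgf, a secreted neuropeptide precursor that neuronal activity induces, had 465, 348 and 348 on kainate arrays of 240 h, against 516, 437 and 483 on PBS arrays. At 24 h it averaged 1290 ± 85.8 after kainate and 447 ± 25.4 after PBS (SD, n = 3 each), and the difference of the effects was −1.85 (limma adjusted p = 1.12e-05). At 240 h itself the groups of both genes overlapped and the log2 difference was −0.32 in each.

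Cd63 and Vgf are shown with the 250 bases before their start, because these were the promoters among the 6 genes that held 1 of 2 motifs of activity-driven transcription, and they were picked after the search. The sequences are RefSeq's, on the rat build GRCr8, read 5′ to 3′ on the gene's strand. Capitals mark the motif, which is the cAMP response element TGACGTCA in Vgf (chr12:25277021-25277270, minus strand), starting 90 bases before the start, and the AP-1 motif TGANTCA in Cd63 (chr7:1921894-1922143, plus strand), starting 143 bases before it.
Vgf: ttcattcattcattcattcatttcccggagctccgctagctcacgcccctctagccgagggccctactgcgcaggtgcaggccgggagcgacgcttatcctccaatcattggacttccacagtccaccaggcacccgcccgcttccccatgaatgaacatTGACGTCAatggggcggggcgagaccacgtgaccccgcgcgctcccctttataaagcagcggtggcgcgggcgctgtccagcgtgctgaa
Cd63: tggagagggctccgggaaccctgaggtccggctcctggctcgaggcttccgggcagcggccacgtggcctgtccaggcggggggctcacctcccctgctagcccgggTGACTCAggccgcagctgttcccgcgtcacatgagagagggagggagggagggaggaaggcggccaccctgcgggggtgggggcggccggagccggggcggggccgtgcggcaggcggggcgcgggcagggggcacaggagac
Both motifs read the same on either strand, and although both begin with TGA and end with TCA, a match to one is not a match to the other. Of the 51 genes whose effect was lower at 240 h than at 24 h, 44 had a promoter sequence, and 2 of these held the AP-1 motif (4.55%) and 1 the cAMP response element (2.27%). Of the 81 genes with a higher effect, 65 had a sequence, and 3 held the AP-1 motif (4.62%) and 1 the cAMP response element (1.54%). Among all 27457 promoters of this length the shares were 6.36% and 1.70%. With 1 to 3 matches in each set, these shares cannot show whether the motifs were more or less frequent than among all promoters. The comparison set was not limited to genes measured here, and a match is a run of letters, not a bound site.

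**Figure D5:**
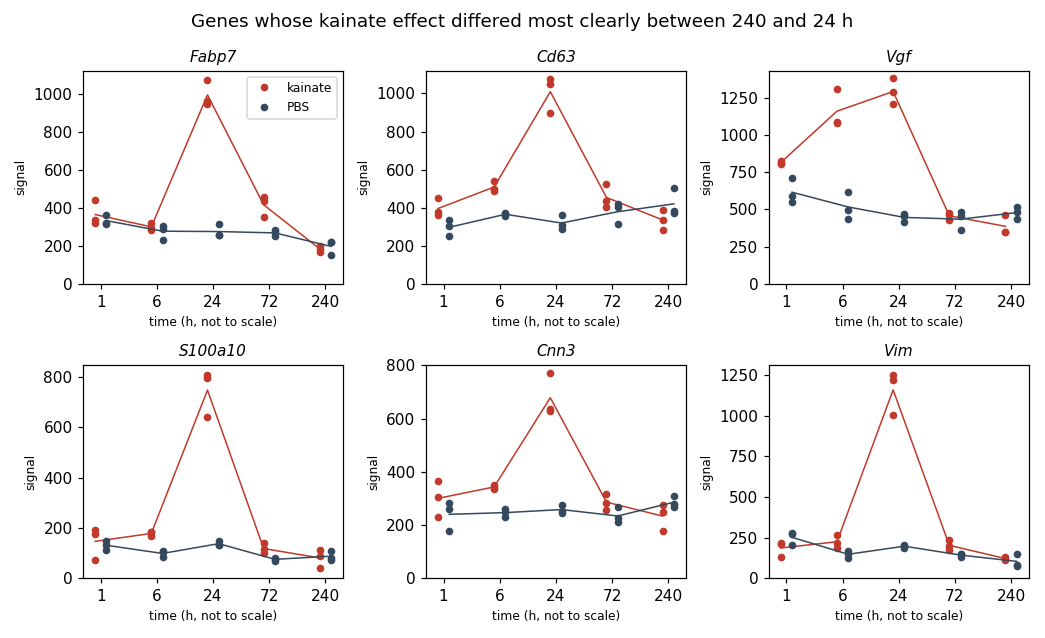
Signal (linear scale from 0) of the 6 genes on each kainate array (red) and PBS array (blue) at 1, 6, 24, 72 and 240 h, with lines through the group means and times spaced evenly, not to scale. Kainate signals peak at 24 h in all 6, and at 240 h both groups lie together.

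Among panel genes, C1qb (−2.05, limma adjusted p = 0.00457), Timp1 (−1.39, limma adjusted p = 0.00961) and Npy (−0.83, limma adjusted p = 0.0280) also had a lower effect at 240 h than at 24 h. For C1qb a second probe set passed in the same direction (−1.51, limma adjusted p = 0.00693). The lipid carrier gene Apod had a difference of the effects of −0.87 (limma adjusted p = 0.00896). Its means at 240 and 24 h were 732 and 446 after kainate and 858 and 287 after PBS (n = 3 each). Apod signal was thus higher at 240 h in both groups, and more so after PBS. All these genes had passed as higher after kainate at 24 h.

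Some genes had a higher effect at 240 h than at 24 h. Gpr15lg differed by 2.57 (limits 1.57 to 3.57, limma adjusted p = 0.00419), with a log2 effect of 1.52 at 240 h and of −1.05 at 24 h. Its kainate mean was 120 ± 8.71 at 240 h and 47.8 ± 19.1 at 24 h, and its PBS mean 44.6 ± 21.2 at 240 h and 93.1 ± 13.3 at 24 h (SD, n = 3 each), so that the PBS arrays also differed between the times. Pola2 had a difference of 2.38 (limma adjusted p = 0.00824), given as a description because its entry through the kainate arrays of 240 h alone fixed a positive effect at 240 h. Bcl2, which blocks apoptosis, had 105, 114 and 80.9 on kainate arrays of 240 h, against 87.4, 58.8 and 65.0 on PBS arrays, with overlap, and its effects were 0.51 at 240 h and −0.66 at 24 h (difference 1.17, limma adjusted p = 0.0280). Gja5, the gap junction protein connexin 40, had 230, 265 and 231 on kainate arrays of 240 h, against 159, 165 and 167 on PBS arrays, with effects of 0.56 at 240 h and −0.51 at 24 h (difference 1.08, limma adjusted p = 0.00744). Nxpe5l3 had effects of 0.63 at 240 h and −0.61 at 24 h (difference 1.24, limma adjusted p = 0.00557). The lysosomal gene Psap, prosaposin, had effects of 0.24 at 240 h and −0.43 at 24 h (difference 0.67, limma adjusted p = 0.0374), and its 2 other probe sets did not pass. None of these except Pola2 passed at 240 h itself. PBS means at 240 and 24 h were 164 and 247 for Gja5 and 98.4 and 158 for Nxpe5l3. They were 70.4 and 97.6 for Bcl2 and 4108 and 4627 for Psap. Kainate means at 240 and 24 h were 242 and 173 for Gja5 and 151 and 103 for Nxpe5l3. They were 99.9 and 62.3 for Bcl2 and 4848 and 3458 for Psap (n = 3 each). In these genes, too, the PBS means differed between the times.

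The effects of 240 h and 72 h were not distinguished by the test, as 0 of 5400 probe sets passed in limma, with 618 at an unadjusted p under 0.05 (11.4%). Of the 90 probe sets higher at 72 h, the median log2 difference was 0.05 at 240 h, against 0.51 at 72 h, and 51 (56.7%) were on the same side at both times. Of the 33 lower at 72 h, it was −0.04 at 240 h, against −0.50 at 72 h, and 19 (57.6%) were on the same side. The smallest p for this difference belonged to Pola2 (2.11), Hbegf (2.10), Nxpe5l3 (0.98), Pnoc (0.76), Gja5 (0.86) and Col5a1 (1.19), all with limma adjusted p of 0.122 to 0.156, and Pola2 and Hbegf had entered through the kainate arrays alone. Col5a1, a chain of fibrillar collagen, had 112, 102 and 110 on kainate arrays of 240 h, against 41.5, 55.6 and 76.0 on PBS arrays (log2 difference 0.94, limits 0.47 to 1.42, limma adjusted p = 0.162). Pnoc, the precursor of nociceptin, had 332, 377 and 296 on kainate arrays, against 250, 289 and 268 on PBS arrays (0.31, limma adjusted p = 0.495). Groups of 240 h were apart in Col5a1 and Pnoc. PBS means at 240 and 72 h were 57.7 and 119 for Col5a1 and 269 and 464 for Pnoc. They were 164 and 287 for Gja5 and 98.4 and 165 for Nxpe5l3. Kainate means at 240 and 72 h were 108 and 99.9 for Col5a1 and 335 and 340 for Pnoc. They were 242 and 233 for Gja5 and 151 and 129 for Nxpe5l3 (n = 3 each). The PBS arrays of these genes thus also differed between the times. In planning the comparisons, the 24 h arrays were counted in the same set of arrays as those of 240 h. The labels name no such sets and do not say whether arrays of 72 h were processed with those of 240 h. In any comparison of 240 h with 72 h, time and array set therefore cannot be told apart.

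Probe sets of a single gene did not always tell the same story, as 3 genes picked after their values were seen show. The probe set standing for Mapt, the microtubule protein tau, had 960, 1075 and 1077 on kainate arrays, against 2024, 1862 and 1935 on PBS arrays (log2 difference −0.90, limits −1.39 to −0.42, limma adjusted p = 0.162). Its 2 other probe sets pointed the other way, with log2 differences of 0.46 and 0.47 and unadjusted p-values of 0.0102 and 0.0160 in limma. For Ccnd3, cyclin D3, the brightest probe set had a log2 difference of 0.36, and the others −1.81 and −0.72. For Hspb1, the small heat shock protein Hsp27, 3 probe sets had log2 effects at 24 h of 5.28, 4.11 and 2.79, whereas the brightest one on average had −0.07. At 240 h these 3 probe sets had log2 differences of 0.76, 0.18 and 0.96 and the brightest 0.55. The most strongly induced Hspb1 probe set had 98.8, 81.3 and 74.1 on kainate arrays of 240 h, against 51.4, 67.1 and 35.5 on PBS arrays, where at 24 h it had 1285, 1423 and 1462 after kainate, against 36.2, 48.2 and 26.2 after PBS. Its effect at 240 h was lower than at 24 h by a log2 difference of −4.52 (limma adjusted p = 6.45e-08). The groups of 240 h were still apart for this probe set, and it did not pass at that time (limma adjusted p = 0.452).

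At the edge of the member rule, the third highest of the 6 signals was 35.01 for the probe set of Gclc just inside and 34.98 for that of Prodh2 just outside. Gclc had 23.1, 35.01 and 5.43 on kainate arrays, against 54.1, 51.2 and 20.1 on PBS arrays, and Prodh2 had 34.3, 30.8 and 34.98, against 48.0, 30.3 and 45.4. When all 8740 probe sets were tested, 11 were called at 240 h, all higher after kainate, and 7 of these lay outside the rule. The smallest adjusted p of these belonged to Meioc, a gene of meiosis, with a mean of 28.8 after kainate and 12.1 after PBS (log2 difference 1.19, limma adjusted p = 0.000246). Signals of this size are near the floor of 10.9.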

How the data were processed

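Total RNA of rat hippocampus was hybridised to 30 Affymetrix arrays. The deposited table gives a linear signal intensity for each probe set on each array. No source used here says how the authors derived it from the scanned images. Trimmed means of the deposited intensities, without the top and bottom 2%, were 150.1 to 150.2, which shows a common scaling before deposit. The labels gave the groups. Of 8799 probe sets, 59 are array controls and were left out. Gene names came from the platform annotation, which can be old, updated through gene identifiers, and 6985 of the 7006 probe sets with 1 gene matched a current one.

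Arrays were rescaled to 1 trimmed mean, signals below the 20th percentile (10.9, log2 3.44) were set to it, and log2 was taken. limma 3.58.1 in R 4.3.3 fitted 10 group means over 30 arrays with 1 precision weight per group (0.663 for kainate and 0.961 for PBS at 240 h) and an intensity trend, and p-values were adjusted by Benjamini-Hochberg over the 5400 probe sets. Weights allow groups to differ in spread, and the unweighted fit is among the alternatives. A gene stands by its probe set with the highest mean log2 signal. The procedure was also run on simulated data with known changes, in noise drawn independently for each probe set. The outcome of that run is not given here, and it is no measure of what was missed at 240 h. Precision is limited by the number of arrays, since arrays have no depth.

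Named genes are the 12 largest passing rises and falls with groups apart (or the 4 smallest p of a direction with fewer than 4), a fixed panel, the 6 smallest p of each difference between times, and the member with the smallest p of a list in which none passed. The members, the panel and the lists were chosen with earlier results of these data known. Same-numbered kainate and PBS arrays of 240 h had deviations that correlated at −0.02, 0.06 and 0.17, so the numbers were not taken to pair the samples. Alternatives changed the floor, filter, scaling, weights, arrays fitted and replicate block, and left out each array.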

Additional observations from a re-analysis of the deposited data

Results flagged for a closer look

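These results stood out because the kainate effect of a named gene at 240 h, tested directly against its effect at 24 h in limma's 30-array fit, was different (adjusted p under 0.05). The values are the log2 effect at 240 h minus that at 24 h. A lower effect at 240 h was seen for S100a10 (−2.65), Vim (−2.26), C1qb (−2.05), Cd63 (−1.98), Fabp7 (−1.94), Vgf (−1.85), Cnn3 (−1.70), Timp1 (−1.39), Apod (−0.87) and Npy (−0.83). A higher effect at 240 h was seen for Gpr15lg (2.57), Pola2 (2.38), Nxpe5l3 (1.24), Bcl2 (1.17), Gja5 (1.08) and Psap (0.67). In the first set every gene had passed as higher after kainate at 24 h. The difference contains the effect at 24 h, so a pass at that time is no separate support. In the second set Nxpe5l3, Bcl2, Gja5 and Psap had passed as lower at 24 h. PBS means of every gene of the second set were lower at 240 h than at 24 h. In the first set they were lower at 240 h for S100a10, Vim, Fabp7, Timp1 and Npy. For C1qb, Cd63, Vgf, Cnn3 and Apod they were higher at 240 h. PBS means at 240 and 24 h were, for example, 104 and 197 for Vim and 858 and 287 for Apod (n = 3 each). Pola2 entered the comparison through the kainate arrays of 240 h alone, which fixed a positive effect at that time. Gpr15lg (limma adjusted p = 0.0527) and Pola2 (0.535) had not passed at 24 h. For the 6 genes with the smallest p (Fabp7, Cd63, Vgf, S100a10, Cnn3 and Vim) the difference passed under every alternative that was run, with limma adjusted p between 1.06e-06 and 0.00355.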

How the results depend on the processing

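The call at 240 h, 1 probe set, was fragile. It numbered 11 without a filter on low values, 2 without weights and 2 genes with the mean of a gene's probe sets (Pola2 and Hbegf both times), 4 in the fit of the 12 arrays of 72 and 240 h (Pola2, Hbegf and Stx7 higher, a probe set of Ccnd3 lower), and 0 in the fit of the 6 arrays of 240 h, after quantile normalization, at a signal above 100, and in the fit of the 18 arrays of 1, 24 and 240 h. Leaving out 1 array gave 0 to 5 calls: 5 without PBS array 2, 3 without kainate array 1 (Kctd20, Lbh and Pde4d, all lower), 1 without PBS array 1 or 3 (neither Pola2) and 0 without kainate array 2 or 3. With a floor of 35 the 1 call was another probe set, without a single gene name (limma adjusted p = 0.00164), and Pola2 passed in 7 of 16 alternatives. The largest log2 difference of the members at 240 h, 2.18, was not that of Pola2. It belonged to a probe set without a single gene name, with means of 90.6 after kainate and 21.6 after PBS. That probe set did not pass in the main fit and passed without the filter (limma adjusted p = 0.0255). The count of probe sets whose effect differed between 240 h and 24 h, 198, was 129 without the filter, 344 without weights and 97 in the fit of those 12 arrays alone, and 93 to 238 with 1 array left out; the lowest was without PBS array 1, and it was 117 and 121 without kainate array 1 or 2. Main calls were 108 higher and 90 lower, against 70 and 96 after quantile normalization (166), 52 and 77 without the filter, 37 and 60 in the 12-array fit and 40 and 53 without PBS array 1. The count for 240 h against 72 h, 0, was 1 with a floor of 35, 1 without the filter and 0 to 1 with 1 array left out. The replicate block gave 1 call at 240 h, 188 for the difference from 24 h and 0 for that from 72 h; same-numbered arrays share only a number. Members of the 33 lists passed in 0 of 561 counts under the alternatives.

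Of 1059 values of named genes at 240 h under the alternatives, 1028 kept their direction and side of the threshold, and 14, in 10 genes, turned direction. These were Arc (0.040 after quantile normalization), Kcnc2 (0.29) and Mapt (0.0085) with the mean of all probe sets of the gene, and, with 1 array left out, Arc (−0.085 to 0.042), Aif1 (−0.73 to 0.12), Npy (−0.19 to 0.083), Gabra5 (−0.47 to 0.028), Mbp (−0.21 to 0.047), Fabp7 (−0.26 to 0.0052), S100a10 (−0.51 to 0.20) and Grm5 (−0.57 to 0.26). The cause was not tested. With 3 arrays a group, and signals near the floor in Pola2, Hbegf and Pde4d, small differences could not be resolved.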
